A study of Mus musculus with 12 samples.

Results

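The genes described here differed with p53 genotype in the same direction after saline and after ethanol in the somatosensory cortex of mouse pups. All 6 libraries from p53 KO pups were compared with all 6 from WT pups, with treatment as a block. A gene was a member when its genotype effect had an unadjusted p under 0.05 and its log2 fold change of KO over WT had the same sign within saline and within ethanol. Of 24452 gene symbols listed, 14739 had enough counts to be tested, and 803 were members, 373 higher and 430 lower in KO pups. None of them passed the correction for multiple testing in this comparison, so every difference described is nominal.

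The pups were males on a C57BL/6 background, and cortex was taken on postnatal day 7, 8 h after the second intraperitoneal injection of ethanol or saline. WT and KO pups came from matings of heterozygotes for Trp53tm1Tyj, a constitutive allele that the KO pups carried on both chromosomes in all cells. The groups WT saline, WT ethanol, KO saline and KO ethanol had 3 libraries each, numbered here 1 to 3. The methods describe RNA samples of separate brains, some taken by laser microdissection and the rest with a hole punch, without naming the libraries.

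The transcription factor p53 is held at a low level by the ubiquitin ligase Mdm2 and accumulates after DNA damage and other stress. It binds a DNA element of paired half-sites and activates genes for cell cycle arrest, DNA repair and apoptosis. Many cell cycle genes are lowered indirectly, through p21, the product of Cdkn1a. In the first postnatal week the cortex removes surplus neurons by apoptosis, and ethanol given at this age adds to cell death.

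Levels are given as CPM, counts scaled to a common library total after TMM correction for composition. Total estimated counts ran from 719735 in the library labelled KO ethanol 1 to 17066392, and WT saline 1, with 1953154, was the second shallowest. Excitatory neuron markers summed to between 1383 and 2132 CPM in every library. The libraries differed in composition beyond genotype. The 78 cytosolic ribosomal protein genes summed to 346280 CPM in WT saline 2, to 149360 in the library labelled KO ethanol 1 and to 100210 in WT saline 3, against 23617 to 66362 in the other 9 libraries. The 10 meningeal markers summed to 3952 CPM in WT saline 2 and to between 43.2 and 623 elsewhere, and the thalamic markers to 1704 CPM in WT ethanol 1 and to between 57.6 and 179 elsewhere. Striatal markers summed to 1204 CPM in WT ethanol 2 and to between 109 and 549 elsewhere. Choroid plexus markers ranged from 3.34 CPM in the library labelled KO ethanol 1 to 5090 CPM in WT ethanol 1.

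Trp53, the targeted gene, was examined first. It was measured at 26.2, 3.67 and 14.4 CPM after saline and 14.8, 20 and 7.23 after ethanol in WT pups, and 11.7, 11.1 and 27.6 after saline and 23.4, 28.1 and 28.7 after ethanol in KO pups. RNA of the gene was thus still counted in KO libraries, which overlapped with WT under saline and lay above all WT libraries under ethanol (log2 fold change 0.59, or 0.92 without WT saline 1, SE 0.43, edgeR adjusted p = 0.763; exact permutation test within treatments, two-sided, p = 0.18). The paper reports that Trp53 reads of KO mice did not come from the deleted region and that coverage of the last exons was raised. The allele was visible in how the counts were divided between the Trp53 transcripts. The share given to NM_001127233 was 7.01% to 23.1% in the WT libraries and 48.3% to 70.6% in 5 KO libraries. In the library labelled KO ethanol 1 it was 7.01%, within the WT range, but only 14 Trp53 counts were available there. WT saline 1, WT saline 2 and WT ethanol 3 had the same share within 0.001 percentage points. An identical division was thus given to 4 libraries with different counts, so this value cannot tell whether the label holds. The mean share was 41.5 percentage points higher in KO libraries (exact permutation test within treatments, two-sided, p = 0.015, where the smallest possible is 0.005). The 4 equal shares entered this mean and test like the others, although they may not reflect the allele.

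With treatment as a block, 813 genes (5.52% of those tested) had an unadjusted p under 0.05 for Genotype, 381 of them higher (2.58%) and 432 lower (2.93%) in KO pups. The smallest adjusted p was 0.758 in edgeR, shared by all 803 members, so 0 genes passed 0.05 and 0 passed the study's level of 0.30. With DESeq2, 1275 genes reached the unadjusted level of 0.05, and after adjustment 57 were left at 0.30 and 0 at 0.05. Only 10 of the 813 genes had opposite signs under saline and ethanol, which the rule nearly ensures, since a blocked effect is an average over both treatments. The median absolute log2 fold change was 1.10 over the members and 0.32 over all genes, and 459 members differed by more than 2-fold. Selection by p favours large folds, so these values are descriptions, and such folds were not counted over all genes.

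Within treatments, 2890 genes under saline (19.6%) and 477 under ethanol (3.24%) had an unadjusted p under 0.05. These comparisons share no library. In both, 93 of the 14739 genes tested reached this level, 12 with the same sign and 81 with opposite signs. The same sign was found for 44.8% of all genes tested. The genotype effect differed between treatments at an unadjusted p under 0.05 for 2237 genes (15.2%), including 71 members. The smallest adjusted p of this difference in edgeR was 0.14, and 1632 genes passed the study's adjusted level for it. For the genotype effect under saline, 3799 genes passed the study's level and 8 had an adjusted p under 0.05 in edgeR. Under ethanol 0 genes passed either level. Among the members, 12 had an unadjusted p under 0.05 within each treatment, 542 within 1 of them and 249 within neither. The 12 are fewer than the 81 genes of opposite sign, so reaching this level in both treatments is no support for a gene named below.

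**Figure D1:**
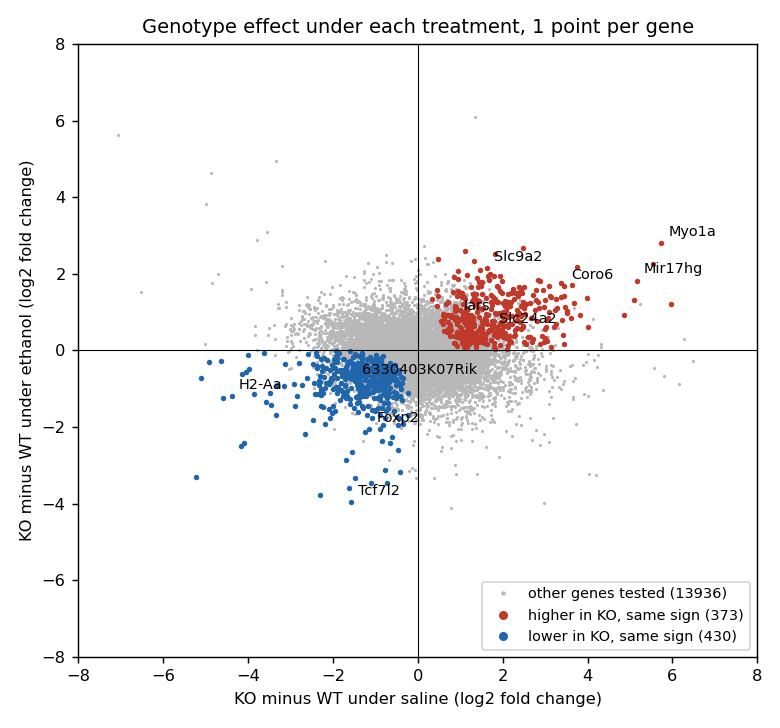
Log2 fold change of KO over WT under saline (horizontal axis) and under ethanol (vertical axis) for the 14739 genes tested. The 373 members higher in KO pups (red) and the 430 lower (blue) occupy the quadrants of equal sign by their definition, whereas 44.8% of all genes had the same sign.

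KO and WT libraries did not overlap for 3381 genes under saline (22.9%) and for 1876 under ethanol (12.7%). They were apart the same way under both treatments for 64 genes (0.434%), of which 57 were members, 22 higher and 35 lower in KO pups. Over all 12 libraries, every KO library lay on 1 side of every WT library for 20 genes (0.136%), of which 18 were members, 9 higher and 9 lower. With genotype labels exchanged within treatments, a gene is apart the same way under both with a probability of 0.005. The share of 0.434% did not exceed this, and the 20 genes are among the 64. The selection by p makes such members more frequent, so these counts are descriptions, and separation of a gene named below is no support for it.

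The member with the smallest p was 6330403K07Rik (chromosome 11, 71031941 to 71033617 in mm10), a well expressed gene on the chromosome of Trp53. It was measured at 273, 578 and 495 CPM after saline and 246, 215 and 296 after ethanol in WT pups, and 153, 162 and 168 after saline and 115, 159 and 161 after ethanol in KO pups. Every KO library was below every WT library. The KO saline libraries were close together (161 ± 7.11 CPM, SD, n = 3), and the WT saline libraries were spread (449 ± 158 CPM, SD, n = 3). The log2 fold change was -1.14 (SE 0.27, 95% interval -1.72 to -0.56, edgeR adjusted p = 0.758), with -1.48 under saline and -0.79 under ethanol. Leaving out any 1 library kept it between -1.22 and -1.0. Without WT saline 2, WT saline 3 and the library labelled KO ethanol 1, which leaves 1 WT saline library, it was -0.67. The gene was picked by its p in these libraries, so the interval and the range are not independent of that choice.

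Chic2, which encodes a palmitoylated protein of vesicles and the plasma membrane, was lower in all KO libraries as well. Its level was 28.8, 52.5 and 43.4 CPM after saline and 22.9, 22 and 27.1 after ethanol in WT pups, and 18.2, 20.7 and 15 after saline and 13.4, 16.7 and 14.5 after ethanol in KO pups. The log2 fold change was -0.95 (SE 0.25), with -1.21 under saline and -0.67 under ethanol. Hyi, a hydroxypyruvate isomerase, had a tight WT saline group, with 13.9, 14 and 14.3 CPM after saline and 13.4, 8.08 and 11.3 after ethanol in WT pups, and 4.91, 3.34 and 7.23 after saline and 6.69, 6.63 and 7.68 after ethanol in KO pups. The KO values were all below the WT values (log2 fold change -1.05, SE 0.31).

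Insig1 retains the sterol sensor complex in the endoplasmic reticulum and so limits cholesterol synthesis. It was at 87.9, 87.1 and 123 CPM after saline and 131, 93.8 and 115 after ethanol in WT pups, and 77.6, 73.4 and 73.8 after saline and 36.8, 42.2 and 67.7 after ethanol in KO pups. The highest KO library lay under the lowest WT library, and the log2 fold change was -0.80 (SE 0.25), with -0.41 under saline and -1.19 under ethanol. Thoc3, a subunit of the THO complex of mRNA export, had the smallest effect of this kind, -0.46 (SE 0.21), with 35.1 to 45.6 CPM in WT and 24.8 to 31.9 CPM in KO libraries. Pard6g, a cell polarity protein, was at 18.1 to 30.6 CPM in WT and 6.69 to 17.7 CPM in KO libraries (log2 fold change -0.61). The scarce genes 5930412G12Rik, Rnf138rt1 and Spdef, an epithelial transcription factor, were the others lower in all KO libraries, with log2 fold changes of -1.78, -0.98 and -1.16 and no more than 73 counts in any library. That of 5930412G12Rik was -1.08 without WT saline 2.

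Slc24a2, an exchanger of sodium for calcium and potassium in neurons, was higher in all KO libraries. Its level was 53, 28.1 and 37.4 CPM after saline and 78.8, 80.6 and 63.9 after ethanol in WT pups, and 156, 140 and 97.4 after saline and 109, 112 and 99.7 after ethanol in KO pups. The log2 fold change was 1.13 (SE 0.29, 95% interval 0.52 to 1.74), with 1.74 under saline and 0.52 under ethanol. The difference of -1.22 between treatments had an adjusted p of 0.266 in edgeR.

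Iars, the cytosolic isoleucyl-tRNA synthetase, had near equal effects under both treatments. It was measured at 40.1, 41.9 and 21.5 CPM after saline and 25.9, 48.7 and 24.2 after ethanol in WT pups, and 63.5, 64 and 64.5 after saline and 58.5, 68.4 and 53.6 after ethanol in KO pups. The KO saline libraries were nearly equal (64 ± 0.515 CPM, SD, n = 3), all KO libraries were above the WT range, and the log2 fold change was 0.89 (SE 0.26), with 0.90 under saline and 0.88 under ethanol. Sdccag8, a centrosomal protein whose loss causes ciliopathy, was at 6.68, 8.82 and 3.12 CPM after saline and 7.81, 6.85 and 8.34 after ethanol in WT pups, and 12.7, 13 and 12.3 after saline and 18.4, 16 and 13.1 after ethanol in KO pups. KO libraries again stood above all WT libraries, by 1.03 on the log2 scale (SE 0.30), with 1.06 and 1.01 under saline and ethanol. Fam212b was at 28.8, 10.8 and 16.2 CPM after saline and 12, 16.7 and 21.2 after ethanol in WT pups, and 36.2, 30 and 34.8 after saline and 41.8, 30.3 and 30.8 after ethanol in KO pups. Its log2 fold change was 0.95 (SE 0.28), and KO stood above WT throughout.

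Slc9a2, an exchanger of sodium for protons, was scarce, at 0, 1.65 and 0.594 CPM after saline and 1.19, 1.58 and 1.48 after ethanol in WT pups, and 2.46, 2.87 and 2.51 after saline and 1.67, 9 and 6.15 after ethanol in KO pups. The library labelled KO ethanol 1, with 1 count, stood just above WT saline 2, and the other KO libraries were clearly higher (log2 fold change 1.90, SE 0.49). Fam186b had at most 39 counts, and its highest WT and lowest KO libraries were almost level at 0.878 CPM (log2 fold change 2.31, SE 0.61). Numb, which restrains Notch signalling, was at 8.91 to 13 CPM in WT and 13.4 to 19.8 CPM in KO libraries (log2 fold change 0.61). Polr3b, a core subunit of RNA polymerase III, was at 6.98 to 15.4 CPM in WT and 15.9 to 22.1 CPM in KO libraries (0.67). Hspbap1, which binds a small heat shock protein, completed the 9, with a log2 fold change of 0.99. Aifm1, the mitochondrial apoptosis-inducing factor, and Aim1l were apart in all libraries too (log2 fold changes 0.40 and 0.97) but had an unadjusted p above 0.05 and were not members.

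**Figure D2:**
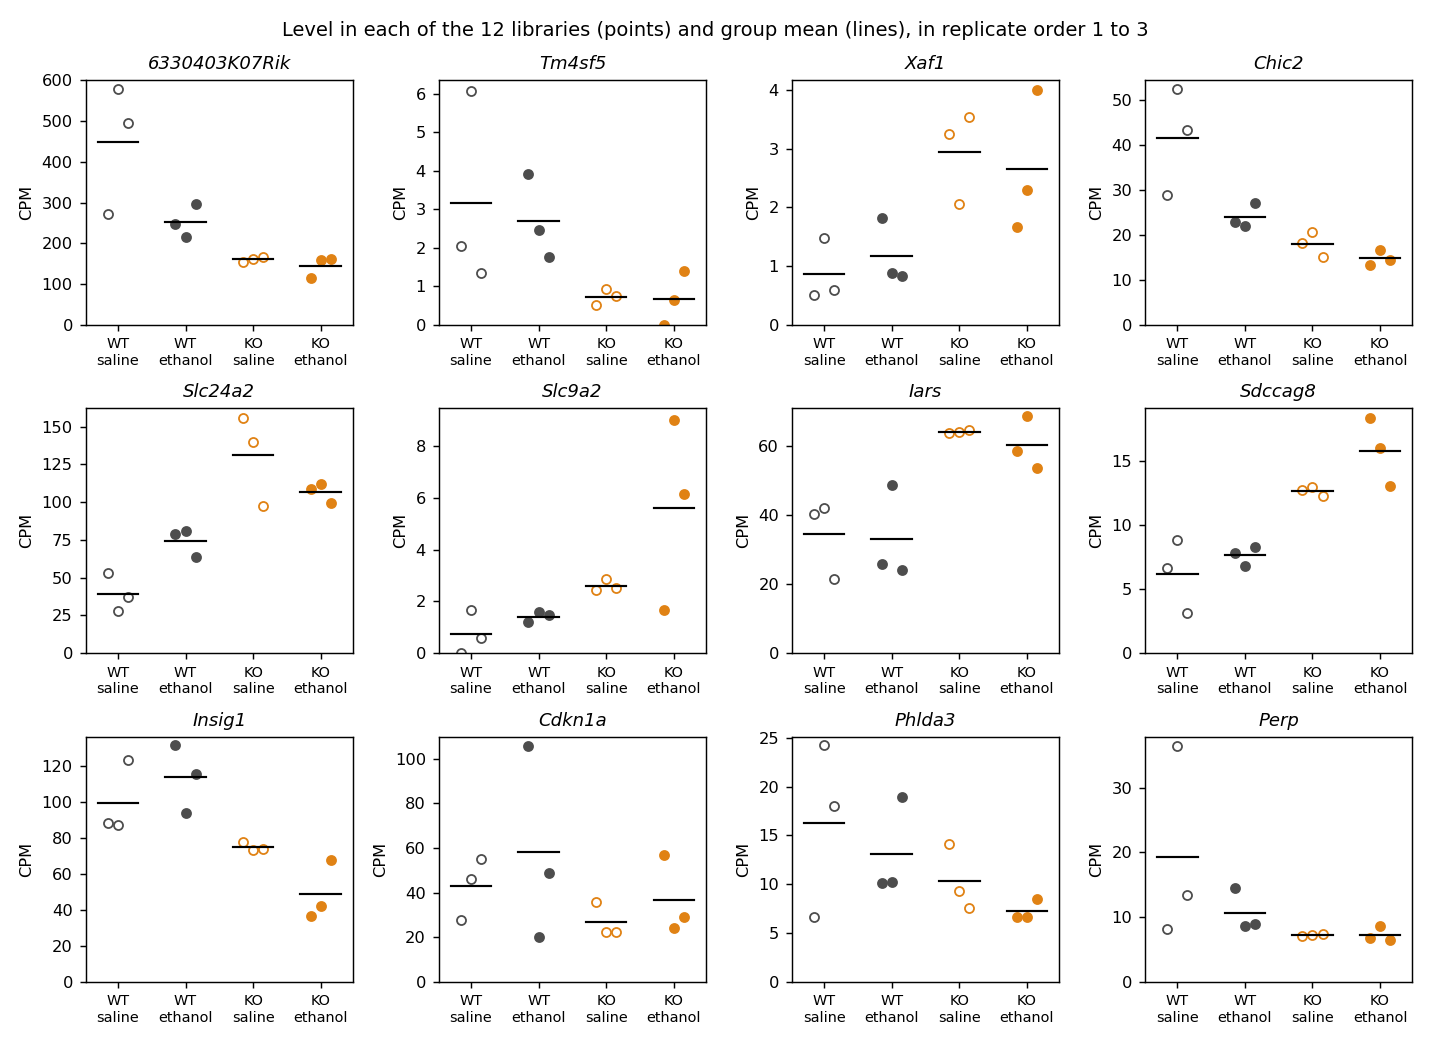
CPM of 12 genes in each library, with open points for saline, filled points for ethanol and a line at each group mean. All KO points of 6330403K07Rik and Chic2 lie below the WT points and those of Slc24a2, Iars and Sdccag8 above them, whereas the points of Cdkn1a overlap.

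Of the 12 members with an unadjusted p under 0.05 within each treatment, 6330403K07Rik was the 1 lower gene. The 11 higher genes were Iars, Sdccag8, Slc9a2, Fam212b, Fam186b, Coro6, Echdc2, Stap2, Myo1a, Mir17hg and 3110062M04Rik. Coro6, an actin-binding coronin, was at 0.514, 0.184 and 0.223 CPM after saline and 1.53, 1.76 and 1.48 after ethanol in WT pups, and 1.67, 0.996 and 5.97 after saline and 1.67, 5.68 and 6.28 after ethanol in KO pups. KO and WT were apart under saline and overlapped under ethanol, where the library labelled KO ethanol 1 held 1 count (log2 fold change 2.35, SE 0.57). Stap2, an adaptor of cytokine signalling, was at 1.03, 1.84 and 1.26 CPM after saline and 1.81, 2.99 and 1.95 after ethanol in WT pups, and 2.54, 1.64 and 7.45 after saline and 11.7, 7.26 and 5.58 after ethanol in KO pups. The genotypes were apart under ethanol and overlapped under saline (log2 fold change 1.62, SE 0.44). Echdc2, a mitochondrial enzyme of the enoyl-CoA hydratase family, ranged from 4.04 to 24.6 CPM in WT and from 6.69 to 69.1 CPM in KO libraries. Myo1a, a myosin of brush borders, was at 0 in 5 WT libraries and had at most 20 counts, so no fold is given.

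Mir17hg, the host transcript of the miR-17-92 cluster, was at 0, 0 and 0.149 CPM after saline and 0.736, 2.81 and 0.463 after ethanol in WT pups, and 3.6, 2.93 and 4.13 after saline and 0, 5.61 and 5.46 after ethanol in KO pups. The genotypes were apart under saline, and under ethanol the 0 of the library labelled KO ethanol 1 lay under the WT values. The fitted log2 fold change of 2.92 (SE 0.75) depends on how zeros are handled. Mature miRNAs are too short for these libraries and were not measured, and the listed host record (chromosome 14, 115044390 to 115046728) overlaps only miR-92a-3p. The sequences of the 6 mature miRNAs (RefSeq, GRCm38.p6) are shown because the known function of the cluster rests on their seeds, bases 2 to 8, given in capitals. There are 4 seeds, of which miR-17-5p shares 1 with miR-20a-5p and miR-19a-3p another with miR-19b-3p.
mmu-miR-17-5p: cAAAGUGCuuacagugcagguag
mmu-miR-20a-5p: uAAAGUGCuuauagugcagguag
mmu-miR-18a-5p: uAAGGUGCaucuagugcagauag
mmu-miR-19a-3p: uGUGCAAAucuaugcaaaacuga
mmu-miR-19b-3p: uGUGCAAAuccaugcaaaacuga
mmu-miR-92a-3p: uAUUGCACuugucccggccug

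Further members of small p held regulators of growth and of neuronal identity. Cdkn1c encodes p57, an imprinted inhibitor of cyclin-dependent kinases. It was at 14.9, 64.1 and 17.2 CPM after saline and 17, 5.62 and 20.6 after ethanol in WT pups, and 9.04, 5.33 and 3.61 after saline and 5.01, 7.18 and 6.6 after ethanol in KO pups. The genotypes were apart under saline and overlapped under ethanol (log2 fold change -1.81, SE 0.48). Without WT saline 2, the highest library, the log2 fold change of Cdkn1c was -1.28. Foxp2, a transcription factor of deep cortical layers and thalamus, ranged from 14.1 to 173 CPM in WT and from 12.7 to 28.2 CPM in KO libraries (log2 fold change -1.59, SE 0.45). Its highest value was in WT ethanol 1, the library with much thalamic RNA. Without this library, WT saline 2 and the library labelled KO ethanol 1, an exclusion chosen after seeing the data, the log2 fold change of Foxp2 was -1.21.

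Neat1, the RNA scaffold of nuclear paraspeckles and a p53 target in other cells, was at 3.08, 3.67 and 0.891 CPM after saline and 15, 10.5 and 2.69 after ethanol in WT pups, and 7.46, 5.8 and 26.3 after saline and 8.36, 33.2 and 33.9 after ethanol in KO pups. KO was above WT under saline, and the genotypes overlapped under ethanol (log2 fold change 1.93, SE 0.56). Mical2, an enzyme that oxidizes actin, was at 6.43 to 135 CPM in WT and 78.6 to 268 CPM in KO libraries (log2 fold change 1.79, SE 0.52). Cemip, a protein of hyaluronan breakdown, differed by 1.09 (SE 0.30), 1.67 under saline and 0.52 under ethanol. Zgpat, a zinc finger repressor, differed by 1.61 (SE 0.44).

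Other members lower by a similar amount under both treatments included genes of neurons. Ap1s2, a subunit of the clathrin adaptor AP-1, was at 67.9, 148 and 80.9 CPM after saline and 77.7, 53.2 and 73.6 after ethanol in WT pups, and 51.6, 64.2 and 29.4 after saline and 40.1, 39.5 and 40.1 after ethanol in KO pups. KO lay below WT within each treatment (log2 fold change -0.91, SE 0.27, or -0.70 without WT saline 2). Rit2, a neuronal GTPase, had log2 fold changes of -1.06 under saline and -0.92 under ethanol. Fzd3, a Wnt receptor needed for axon growth, had -0.73 and -0.83, and Synpr, a synaptic vesicle protein, -1.60 and -1.41. Fundc1, a mitophagy receptor, and Atp6ap1l had -1.04 and -1.50 under saline and -1.01 and -1.50 under ethanol. The highest of the 12 libraries was WT saline 2 for 5 of these 6 genes and WT ethanol 3 for Atp6ap1l. H2-Aa, an MHC class II chain, was at 11.6 CPM in WT saline 2 and at 1.93 or less elsewhere, and its log2 fold change was -2.96 with and -1.90 without that library. Spata33 differed by -1.74 at no more than 31 counts. Pcdha8, which shares exons with its neighbours in the protocadherin cluster, and Mir703, a short RNA, were also of small p, but their counts are uncertain.

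Genes near Trp53 were described as a group because they are inherited together with the targeted allele. Within 5 Mb of its start, 145 genes were tested and 13 (8.97%) had an unadjusted p under 0.05, 7 higher and 6 lower, against 46 of 1040 (4.42%) on the rest of chromosome 11 and 5.52% of all genes. All 13 were members. The same sign under both treatments was found for 48.3% of the 145 genes. Neighbouring genes are not independent, and no test was made. Without WT saline 2, WT ethanol 1 and the library labelled KO ethanol 1, 30 of the 145 genes and 13.5% of all genes had an unadjusted p under 0.05.

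The members of smallest p in this window, after 6330403K07Rik at 1.45 Mb from the Trp53 start, were Tm4sf5, Xaf1, Aspa, Myh4 and 4930563E22Rik. Tm4sf5, a membrane protein with 4 spans, was at 2.06, 6.06 and 1.34 CPM after saline and 3.91, 2.46 and 1.76 after ethanol in WT pups, and 0.526, 0.937 and 0.738 after saline and 0, 0.632 and 1.4 after ethanol in KO pups. KO lay below WT within each treatment (log2 fold change -1.82, SE 0.51). Xaf1, an antagonist of the apoptosis inhibitor XIAP, lies 2.72 Mb from Trp53 and was at 0.514, 1.47 and 0.594 CPM after saline and 1.81, 0.878 and 0.834 after ethanol in WT pups, and 3.25, 2.05 and 3.54 after saline and 1.67, 2.29 and 4 after ethanol in KO pups. Only the library labelled KO ethanol 1 lay within the WT range of its treatment (log2 fold change 1.48, SE 0.44). Aspa, the aspartoacylase of oligodendrocytes, was highest in WT saline 2, at 10.3 CPM, and its log2 fold change was -1.74 (SE 0.59), or -1.14 without that library. Myh4, a skeletal muscle myosin, had at most 26 counts (log2 fold change 1.75, SE 0.64), and 4930563E22Rik differed by 0.91 (SE 0.37). Whether DNA flanking the allele took part in these effects was not tested.

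**Figure D3:**
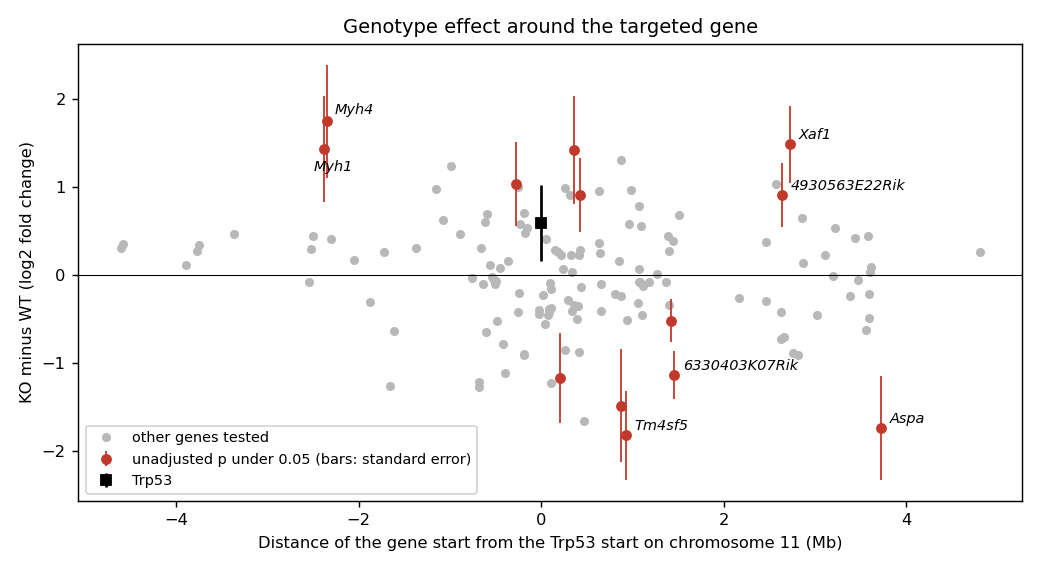
Log2 fold change of KO over WT, with treatment as a block, for the 145 genes within 5 Mb of Trp53 against the distance of their start from that of Trp53. The 13 genes at an unadjusted p under 0.05 (red, with standard errors) lie on both sides of 0, between -2.38 and 3.72 Mb.

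Of 50 genes listed as activated by p53, 46 were tested, and 5 were lower and 2 higher at an unadjusted p under 0.05, all 7 being members, where 2.93% of all genes were lower and 2.58% higher. Negative log2 fold changes were found for 22 targets and positive ones for 24, with a median of 0.04, against -0.03 over all genes. Without WT saline 2, WT ethanol 1 and the library labelled KO ethanol 1, 4 targets were higher and 2 lower, where 13.5% of all genes had an unadjusted p under 0.05, and the median was -0.19. Cdkn1a was at 27.8, 45.9 and 54.9 CPM after saline and 106, 20.2 and 48.7 after ethanol in WT pups, and 36, 22.3 and 22.4 after saline and 56.8, 24.1 and 28.9 after ethanol in KO pups. The genotypes overlapped under both treatments, and the log2 fold change was -0.71 (SE 0.37, 95% interval -1.49 to 0.08; edgeR adjusted p = 0.758; exact permutation test within treatments, two-sided, p = 0.195). With 1 library left out it ranged from -0.89 without the library labelled KO ethanol 1 to -0.38 without WT ethanol 1. The effects under saline and ethanol were -0.68 and -0.73.

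Phlda3, a p53-induced inhibitor of Akt, was at 6.68, 24.3 and 18.1 CPM after saline and 10.1, 10.2 and 18.9 after ethanol in WT pups, and 14.1, 9.31 and 7.6 after saline and 6.69, 6.63 and 8.44 after ethanol in KO pups. KO was below WT under ethanol, and the genotypes overlapped under saline (log2 fold change -0.75, SE 0.34; exact permutation test, two-sided, p = 0.075). Perp, a junction protein with a role in p53-dependent apoptosis, was at 8.23, 36.4 and 13.4 CPM after saline and 14.4, 8.61 and 8.99 after ethanol in WT pups, and 7.11, 7.2 and 7.45 after saline and 6.69, 8.61 and 6.47 after ethanol in KO pups. The genotypes were apart under both treatments, under ethanol by a margin too small to show in these digits, and the log2 fold change of -1.0 (SE 0.37) was -0.57 without WT saline 2. Ephx1, the microsomal epoxide hydrolase, was at 4.11 to 18.1 CPM in WT and 3.98 to 6.79 CPM in KO libraries (log2 fold change -1.10, SE 0.39).

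The other targets at this level were scarce or overlapped more. Mgmt, which removes alkyl groups from DNA, differed by -1.50 (SE 0.61) at no more than 30 counts, and Ptprv, a phosphatase induced by p53, by 1.92 (SE 0.75) at no more than 16. Fas, the death receptor, differed by -1.37 (SE 0.57) at no more than 27 counts. Ddb2, a sensor of ultraviolet damage, was at 3.6, 7.35 and 5.79 CPM after saline and 8.72, 18.8 and 8.43 after ethanol in WT pups, and 10.3, 12.1 and 20.8 after saline and 3.34, 24 and 23.3 after ethanol in KO pups (log2 fold change 0.97, SE 0.41). Fas and Ddb2 were named after their values were seen.

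Mdm2 was at 20.6, 12.5 and 17.6 CPM after saline and 34.4, 30.2 and 31.4 after ethanol in WT pups, and 27.8, 25.4 and 26.1 after saline and 40.1, 28.3 and 30.9 after ethanol in KO pups. The KO libraries were above WT under saline and overlapped with WT under ethanol (log2 fold change 0.34, SE 0.24; exact permutation test, two-sided, p = 0.05). The proapoptotic genes Bax, Bbc3 and Pmaip1 had log2 fold changes of -0.45, 0.66 and 0.03, with SE of 0.33, 0.42 and 0.58. The log2 fold change of Bax was -1.12 under saline, where the genotypes were apart, and 0.23 under ethanol, where they overlapped. With 1 library left out its blocked value ranged from -0.66 to -0.19. It was -0.19 without WT saline 2 and -0.27 without KO saline 1. Pmaip1 took either sign with 1 library left out, between -0.46 and 0.35. Zmat3, an RNA-binding p53 effector, and Sesn2, a stress-induced inhibitor of mTORC1, had 0.37 and 0.52. The log2 fold change of Sesn2 was 1.95 under saline and -0.80 under ethanol, and the blocked value ranged from 0.10 without WT saline 2 to 0.88 without WT ethanol 1. Over Trp53 and the 9 fixed targets that could be tested, the unadjusted exact permutation p ranged from 0.05 to 0.885.

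A few p53 targets hold the p53 element near an annotated start. RefSeq windows from 250 bases before to 50 after such a start (GRCm38.p6) were available for 39 of the 50 targets and 582 members. The windows were searched for the p53 consensus of 20 bases with no spacer, which reads alike on both strands, with the 4 invariant bases kept. Where a symbol had several windows, the best match was kept. Elements outside the windows were not searched, so a gene without a match may still have one. At most 1 mismatch was found in 4 targets (10.3%), Cdkn1a, Ccng1, Gtse1 and Rps27l, in 0 members and in 0.0814% of 27025 symbols. With at most 2 mismatches the shares were 17.9% of the targets, 0.344% of the members (Elp4 and Pgrmc1) and 0.392% of all symbols. A match is a description of letters. Stretches of 3 targets are printed along the gene, with the matching 20 bases in capitals and 1 mismatch each, because their levels follow. They lie at chr17:29090908-29090967 on the plus strand (Cdkn1a), chr11:40755442-40755501 on the minus strand (Ccng1) and chr9:66946276-66946335 on the plus strand (Rps27l).
Cdkn1a: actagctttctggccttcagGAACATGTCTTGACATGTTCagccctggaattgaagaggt
Ccng1: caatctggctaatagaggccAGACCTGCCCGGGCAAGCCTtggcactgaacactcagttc
Rps27l: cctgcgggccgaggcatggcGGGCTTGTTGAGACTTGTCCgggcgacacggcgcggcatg

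None of these 3 genes had an unadjusted p under 0.05 for Genotype. Ccng1, a cyclin G induced by p53, was at 63.2, 108 and 80.1 CPM after saline and 59.2, 33.4 and 81.7 after ethanol in WT pups, and 89.7, 121 and 32.7 after saline and 76.9, 42.1 and 24.7 after ethanol in KO pups. The genotypes overlapped under both treatments, with a log2 fold change of -0.19 (95% interval -0.95 to 0.58), which ranged from -0.39 without KO saline 2 to -0.01 without KO saline 3. Rps27l, a p53-induced paralogue of a ribosomal protein, was at 24.7, 356 and 71.1 CPM after saline and 21.1, 32.7 and 44.6 after ethanol in WT pups, and 24.5, 32.1 and 27.7 after saline and 63.5, 30.9 and 30.7 after ethanol in KO pups. It was highest in WT saline 2, WT saline 3 and the library labelled KO ethanol 1, the libraries with the most ribosomal protein RNA, and its log2 fold change of -1.09 was -0.21 without WT saline 2. Rps27l was named after its values were seen.

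**Figure D4:**
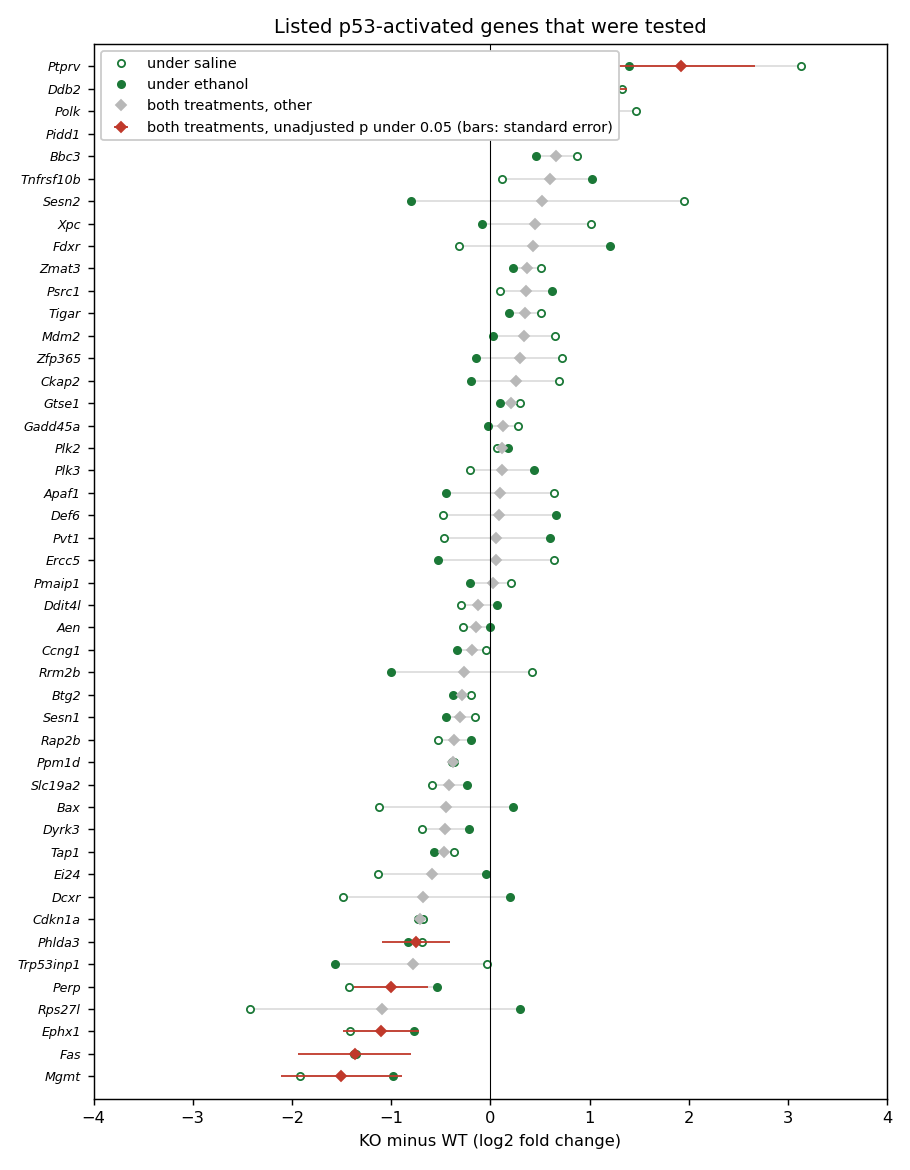
Log2 fold change of KO over WT under saline (open circles), under ethanol (filled circles) and with treatment as a block (diamonds) for the 46 listed p53 targets that were tested. The 7 genes at an unadjusted p under 0.05 (red, with standard errors) are 5 lower and 2 higher ones, and the diamonds of the others lie on both sides of 0.

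The lists of this paragraph held 0 or 1 gene each at an unadjusted p under 0.05. Of all genes tested, 5.52% had such a p and 2.58% were higher, so few are to be looked for in lists of this size. Of 27 genes of the p53 family and its regulators, 0 had an unadjusted p under 0.05 (median log2 fold change 0.19). Of 40 cell cycle genes lowered through p21, 1 was higher (median -0.03). This was Tpx2, a spindle assembly factor, at 4.11, 4.41 and 5.42 CPM after saline and 7.76, 8.61 and 4.54 after ethanol in WT pups, and 13.7, 16.9 and 6.49 after saline and 6.69, 9.16 and 8.5 after ethanol in KO pups. KO was above WT under saline only (log2 fold change 0.83, SE 0.36). Of 50 DNA repair genes 0 had an unadjusted p under 0.05 (median 0.24), as had 0 of 19 immediate early genes (median -0.02) and 0 of 36 genes of synaptic vesicles and release (median 0.12).

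In the Bcl2 family and the caspases, 3 of 31 genes were lower and 0 higher (median -0.18), beside 2.93% and 2.58% of all genes. Bok, a pore-forming relative of Bax, was at 85.9, 84.3 and 75.9 CPM after saline and 54.7, 38.3 and 65 after ethanol in WT pups, and 42.9, 40 and 40.4 after saline and 53.5, 42.4 and 50.4 after ethanol in KO pups. Its libraries were apart under saline (-1.0) and overlapped under ethanol (-0.12), with -0.56 (SE 0.24) for both. Casp12, a caspase of the endoplasmic reticulum, had at most 38 counts, and its log2 fold change was -2.07, or -1.32 without WT saline 2. Without WT saline 2, WT ethanol 1 and the library labelled KO ethanol 1, 4 genes of the list were lower and 1 higher, with 13.5% of all genes at this level.

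Some markers of tissue outside the cortex were nominally lower in KO pups, and in bulk tissue fewer cells of a type and less RNA per cell cannot be told apart. Of 10 meningeal and fibroblast markers, 6 were lower and 0 higher in KO pups, with a median log2 fold change of -1.58, where 2.93% of all genes were lower. Among them were the collagens Col3a1 (-2.54, SE 0.78) and Col1a2 (-1.74, SE 0.66), the proteoglycan Lum (-2.50, SE 0.89) and the growth factor Igf2 (-1.61, SE 0.61). Col3a1 was at 6.17, 253 and 19.6 CPM after saline and 110, 16.5 and 17.8 after ethanol in WT pups, and 6.49, 6.62 and 14.3 after saline and 10, 17.2 and 15.5 after ethanol in KO pups. The high values were those of WT saline 2 and WT ethanol 1. The median of the markers was -0.73 without WT saline 2, and Col3a1, Col1a2, Lum and Igf2 were at -1.19, -0.91, -1.32 and -0.76. Without these libraries and the library labelled KO ethanol 1, 0 of the 10 markers had an unadjusted p under 0.05 (13.5% of all genes), the median was -0.34, and Col3a1 differed by -0.36.

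Of 7 thalamic markers tested, 3 were lower (median -0.72), against 2.93% of all genes. Tcf7l2, a transcription factor of thalamic neurons, was at 471 CPM in WT ethanol 1 and between 1.03 and 29.2 CPM in the other 11 libraries. Its log2 fold change of -2.78 (SE 1.10) was -0.44 without that library and 0.88 without it, WT saline 2 and the library labelled KO ethanol 1. Calb2, a calcium buffer that interneurons also express, was at 870 CPM in WT ethanol 1 and at 58.9 CPM or less elsewhere, and its -1.80 was -0.35 without that library. Rora, a nuclear receptor, differed by -0.70 (SE 0.29).

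Markers of cortical cell types gave 1 or 2 members a list, where 5.52% of all genes had an unadjusted p under 0.05. Of 13 astrocyte and radial glia markers, 2 were lower, the water channel Aqp4 (-0.81, SE 0.38) and the filament protein Vim (-0.98, SE 0.46, or -0.59 without WT saline 2). Of 13 microglial markers 1 was lower, Aif1, with -1.15, or -0.55 without WT saline 2. Of 13 oligodendrocyte lineage markers 1 was higher, the transcription factor Olig2, at 17.5, 5.33 and 16.6 CPM after saline and 20.8, 26 and 13.3 after ethanol in WT pups, and 42.1, 21.3 and 26.8 after saline and 16.7, 35.4 and 34.8 after ethanol in KO pups (log2 fold change 0.89, SE 0.35). Of 13 excitatory and 13 inhibitory neuron markers, Foxp2 and Calb2 were the lower ones, and of 8 hippocampal markers Calb1 (-1.15, SE 0.41). For endothelial, choroid plexus, blood and striatal markers the count was 0.

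For ribosomal protein genes, 0 of 78 had an unadjusted p under 0.05 with treatment as a block, and the median log2 fold change was -2.42 under saline and 0.77 under ethanol, with equal signs for 2 genes. Under ethanol the summed level was 149360 CPM in the library labelled KO ethanol 1, and in KO ethanol 2 and 3, at 23840 and 23617 CPM, it was below the WT libraries, at 25241 to 57201 CPM. Without the library labelled KO ethanol 1 the blocked median was -1.64, against -0.84 with it. Without WT saline 2, WT ethanol 1 and the library labelled KO ethanol 1, 76 of the 78 were lower in KO pups at an unadjusted p under 0.05. Blood markers had medians of -3.19 under saline and 0.91 under ethanol, and choroid plexus markers of 2.22 and -1.70. The part of these library differences in the members' effects was not tested.

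**Figure D5:**
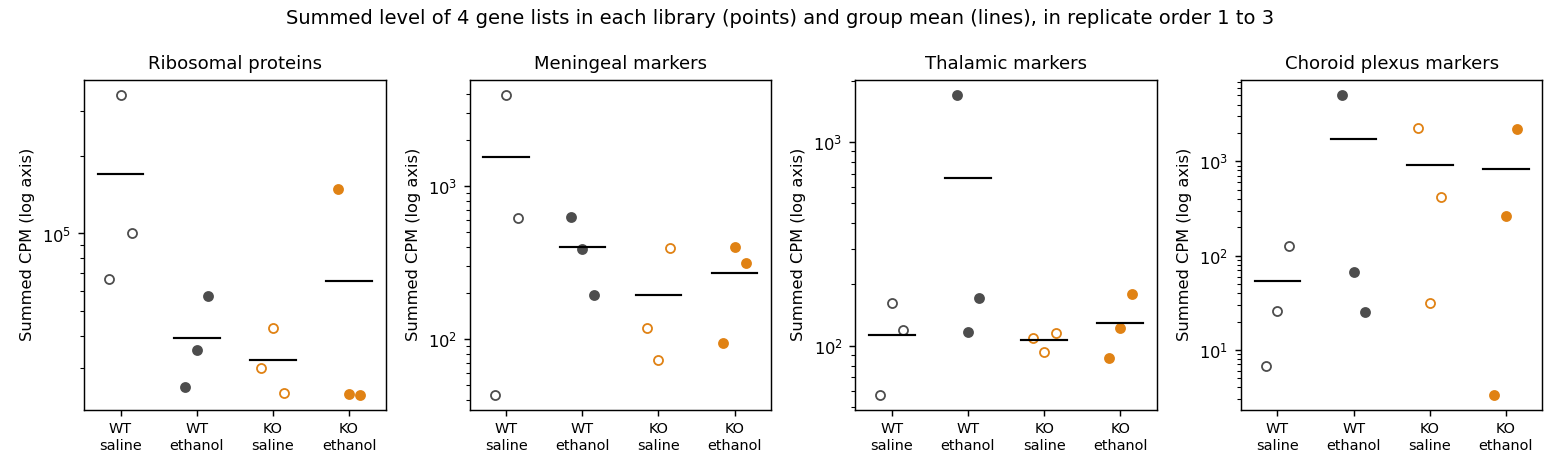
Summed CPM, on log axes, of ribosomal protein genes and of the markers of meninges, thalamus and choroid plexus in each library, with open points for saline, filled points for ethanol and a line at each group mean. WT saline 2 is highest for ribosomal proteins (346280 CPM) and meninges (3952 CPM), and WT ethanol 1 for thalamus (1704 CPM) and choroid plexus (5090 CPM).

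Some features that the rule did not use were tabulated for the members. Genes higher in KO pups had a median transcript length of 3312 bases and a median GC content of 52.0%, and genes lower in KO pups 2327 bases and 47.4%, beside 2951 bases and 50.4% for all genes tested. The mean level had a median of 13.1 CPM over members and 24.02 CPM over all genes, and 54 members had a mean under 1 CPM. On the X chromosome, 44 of 523 genes tested (8.41%) were members, against 5.45% of all genes. No test was made of these features.

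Which genes were members depended on the libraries compared. The fits below reuse libraries that chose the members, so kept signs follow largely from the rule and are no independent support. Across the 12 comparisons that left out 1 library, 169 of the 803 members kept their direction at an unadjusted p under 0.05 every time, 94 higher and 75 lower. Without the library labelled KO ethanol 1, 2461 genes had an unadjusted p under 0.05, and 733 of the 803 members were among them in their direction. Without WT saline 1 the count of genes was 2065, without WT saline 2 it was 434, and without KO saline 3 it was 379. Without both of the shallowest libraries, WT saline 1 and that labelled KO ethanol 1, 4224 genes had an unadjusted p under 0.05, 6467 an adjusted p under 0.30 and 0 an adjusted p under 0.05 in edgeR, and 758 members were among the 4224 in their direction. Without WT saline 2, WT ethanol 1 and the library labelled KO ethanol 1, 1979 genes met the rule, 861 higher and 1118 lower, and of the 796 members then tested 788 kept their sign and 471 had an unadjusted p under 0.05. In that comparison the log2 fold change of 6330403K07Rik was -1.02, of Chic2 -0.87, of Slc24a2 1.06, of Iars 0.91 and of Sdccag8 1.19. In a comparison without WT saline 2, WT saline 3 and the library labelled KO ethanol 1, also chosen after seeing the data, 832 genes met the rule, and of the 802 members then tested 795 kept their sign and 277 had an unadjusted p under 0.05. There the log2 fold change of 6330403K07Rik was -0.67, of Chic2 -0.62, of Slc24a2 0.82, of Iars 0.84 and of Sdccag8 0.95.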

How the data were processed

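The authors aligned single-end reads of stranded libraries to mm10 with Bowtie2 in TopHat and quantified RefSeq transcripts in Partek, as the methods and the submitters' processing notes state. Settings of the counting are not given in the sources used here. The deposited estimated counts, which the authors did not scale for depth, were summed per gene symbol and rounded. The RPKM values deposited by the authors were used only in alternatives. The methods name laser microdissection for some samples, but not for which libraries.

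Genes were filtered with filterByExpr, scaled by TMM and tested in edgeR 4.0.16 (R 4.3.3) with the quasi-likelihood test, Genotype with treatment as a block, and with 1 mean per group for effects within treatments and their difference. Tests were two-sided, and p values were adjusted over the 14739 genes by Benjamini and Hochberg. SE and intervals were derived from the F statistic. For Trp53 and the fixed targets, libraries were exchanged within treatments (400 arrangements) on log2 CPM with a prior count of 2. The edgeR fit with treatment as a block was run on simulated counts. These were drawn from a profile common to all libraries, apart from the genes changed by genotype. Differences in composition between libraries were not simulated.

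The named genes were, by rule, Trp53, 10 p53 targets (Eda2r had too few counts), 12 higher and 12 lower members with the smallest p, 8 of each with the smallest larger p within treatments, up to 4 nominal genes per list, and 6 genes near Trp53. Not all are printed, and 1 is not reported here. The genes apart in all libraries, Fas, Ddb2 and Rps27l were added after their values were seen. The members and lists were chosen with earlier results of these data known. DESeq2 1.42.0, limma 3.58.1, other scalings, filters and units, and fits without libraries were alternatives. Fits without WT saline 2, the library labelled KO ethanol 1 and either WT saline 3 or WT ethanol 1 were chosen after seeing the data. Lengths and GC content come from GENCODE, for at least 99.2% of each set. Total counts per library limit the precision of scarce genes.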

Additional observations from a re-analysis of the deposited data

How the results depend on the processing

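No paired analysis was possible because the labels give no pairing, and the numbers 1 to 3 used here only order the libraries of a group. The second letter of the library names was M in WT libraries only and J in KO saline libraries only. Its meaning is not given, and it was not used in any fit. Counts are given as genes at an unadjusted p under 0.05, members and genes at an adjusted p under 0.30, which were 813, 803 and 0 with all libraries. They moved by more than 1.5 times with DESeq2 (1275, 1219 and 57), with at least 10 counts in every library, which tests fewer genes (338, 329 and 0), with limma voom and sample quality weights (3314, 3132 and 4814), without the 2 libraries whose names open with L, WT saline 1 and the library labelled KO ethanol 1 (4224, 4128 and 6467), and without WT saline 2, WT ethanol 1 and the library labelled KO ethanol 1 (2003, 1979 and 655). With 1 library left out they ranged from 379 to 2461, from 375 to 2380 and from 0 to 2361. The count at an adjusted p under 0.05 was 0 in each of these settings. The other settings stayed within 1.5 times. With library totals in place of TMM, 87.8% of the nominal genes were higher in KO pups against 46.9%, since the median log2 fold change of all genes went from -0.03 to 0.21.

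Of 2067 alternative values of the 79 named genes, 2048 kept their direction and 19 reversed. Most named genes were chosen by p or separation in these same libraries. Kept directions therefore follow largely from that choice and are no independent support. The cause of the reversals was not tested. Pmaip1, at 0.03 with all libraries, became -0.89 with voom, -0.12 on log2(RPKM + 0.1), -0.11 with the first letter of the library name as a covariate, -0.62 without the libraries whose names open with L, -0.72 without WT saline 2, WT saline 3 and the library labelled KO ethanol 1, and -0.74 without WT saline 2, WT ethanol 1 and that library, and ranged from -0.46 to 0.35 with 1 library left out. Tcf7l2, at -2.78, became 0.014 with voom and 0.88 without WT saline 2, WT ethanol 1 and the library labelled KO ethanol 1. Ccng1 became 0.032 without TMM, Sesn2 -0.029 on log2(RPKM + 0.1), Trp53 -0.49 for its most abundant transcript alone, and Rps27l 0.034 without WT saline 2, WT saline 3 and the library labelled KO ethanol 1. Depth limits genes such as Myo1a and Ptprv, with at most 20 and 16 counts.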
